A study of Eurytemora affinis with 15 samples.

Results

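Adult males of Eurytemora affinis, an estuarine calanoid copepod, were held in Fatouville sediment elutriate at 2500 mg/L and compared with males held in elutriate of the same site at 350 mg/L. The comparison asks how the concentration of 1 elutriate bears on gene expression. It took the 18229 genes, of 23728 in the table, that had a normalised read count of at least 10 in at least 3 of the 6 Fatouville libraries. Each library was made from a pool of 30 whole adult males, with 3 pools at 2500 mg/L and 3 at 350 mg/L, called biological replicates in the labels. All animals came from the Seine estuary, were kept at 15 psu and 15 °C before use, and were exposed for 72 h. The series of 15 libraries also has 3 pools each from elutriate of a second site, Tancarville, at the same 2 concentrations and from water alone (Control). The labels give no contaminant levels for the elutriates, and the animals were taken from the field, not from an inbred line.

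Eurytemora affinis is a main grazer of the turbid, brackish reach of many estuaries and food for fish and shrimps there. An elutriate is the water phase obtained after sediment has been shaken in water, and it stands in for the material released when tides or dredging lift sediment off the bed. Such sediments can carry metals and organic pollutants, which animals meet with detoxifying enzymes, metal-binding proteins and chaperones. The genes carry locus identifiers that the files do not pair with names, so none of these families could be read out. The marker genes of the male sex, the gut or any other tissue could not be checked either, and genes are described below by level, size of difference and behaviour across pools.

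The Fatouville libraries held 13.96 to 15.8 M reads in genes at 2500 mg/L and 15.2 to 16.3 M at 350 mg/L. The 350 mg/L pools were uneven. Pools 1 and 3 had a Spearman correlation of 0.986 over the genes compared, while pool 2 correlated at 0.961 and 0.958 with them. In pool 2, 729 genes were at least 2-fold above both other pools of its group, against 132 in pool 1 and 53 in pool 3. Among the 2500 mg/L pools the correlations were 0.959 to 0.966, and 455 genes were at least 2-fold above both other pools in pool 1, 126 in pool 2 and 55 in pool 3. Between the concentrations the correlations lay at 0.915 to 0.949, below every within-group value. The first principal component of the 6 libraries (55.7% of the variance) placed the 2500 mg/L pools at 65.3, 57.5 and 41.3 and the 350 mg/L pools at -68.4, -17.6 and -78.0, with pool 2 of 350 mg/L nearest to the other group. The second component (20.7%) set that pool apart, at -62.7. The main counts below are also given without it.

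A single gene, LOC111710162, passed the test. Its normalised read count was 1875, 2388 and 2469 in the 2500 mg/L pools, against 1024, 900.4 and 971 in the 350 mg/L pools. Every pool at the higher concentration lay well above every pool at the lower one, and the spread was small at 350 mg/L. The gene rose 2.32-fold in mean, to 2244 ± 322 at 2500 mg/L against 965 ± 62.1 at 350 mg/L (SD, n = 3 each), a difference of 1.21 on the log2 scale with an SE of 0.17 (limma adjusted p = 0.0441). This was 1 gene of the 18921 fitted over all 15 libraries, or 0.00529%. In the other groups LOC111710162 averaged 1057 ± 172 at the higher Tancarville concentration, 938 ± 133 at the lower one and 1171 ± 285 in Control (SD, n = 3 each). The highest of those 9 pools was Control pool 3 at 1495, below the lowest Fatouville 2500 mg/L pool. The call stood without Fatouville 2500 mg/L pool 1 (limma adjusted p = 0.00889) and was lost without any other single Fatouville pool, with limma adjusted p of 0.165 and 0.196 without pools 2 and 3 of 2500 mg/L. Without pools 1, 2 and 3 of 350 mg/L the limma adjusted p was 0.127, 0.066 and 0.137, and by edgeR it was 0.0563. The log2 fold change stayed at 1.13 to 1.33 over 17 alternative settings.

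No gene passed the limma test with a lower level at 2500 mg/L, and 1446 genes had a lower level at an unadjusted limma p under 0.05 (7.93%). The gene with the smallest p in that direction was LOC111696256, at 72.2, 59.4 and 53.1 normalised counts in the 2500 mg/L pools, against 121, 134 and 129 in the 350 mg/L pools. The 2 groups did not overlap. Its log2 fold change of -1.05 had an SE of 0.19 (limma adjusted p = 0.0543). LOC111714820 was next among genes with lower values, at 27.6, 19.1 and 24.4 normalised counts in the 2500 mg/L pools, against 45.9, 59.3 and 54.0 in the 350 mg/L pools. Its groups did not overlap either, and the log2 fold change was -1.14 (SE 0.21, limma adjusted p = 0.0543). For both genes the mean of the water controls lay between the Fatouville groups. LOC111696256 averaged 61.6 ± 9.78 at 2500 mg/L, 128 ± 6.52 at 350 mg/L and 104 ± 12.0 in Control. LOC111714820 averaged 23.7 ± 4.29 at 2500 mg/L, 53.1 ± 6.73 at 350 mg/L and 33.8 ± 3.86 in Control (SD, n = 3 each). In the Tancarville groups LOC111696256 averaged 91.8 ± 22.2 at the higher concentration and 106 ± 13.7 at the lower (SD, n = 3 each). Its value in Tancarville 2500 mg/L pool 1, at 69.4, lay below that in Fatouville 2500 mg/L pool 1. LOC111714820 was at 36.3 ± 0.92 at the higher Tancarville concentration and 35.2 ± 3.50 at the lower. For that gene the Fatouville 350 mg/L pools were the highest of all 15.

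**Figure D1:**
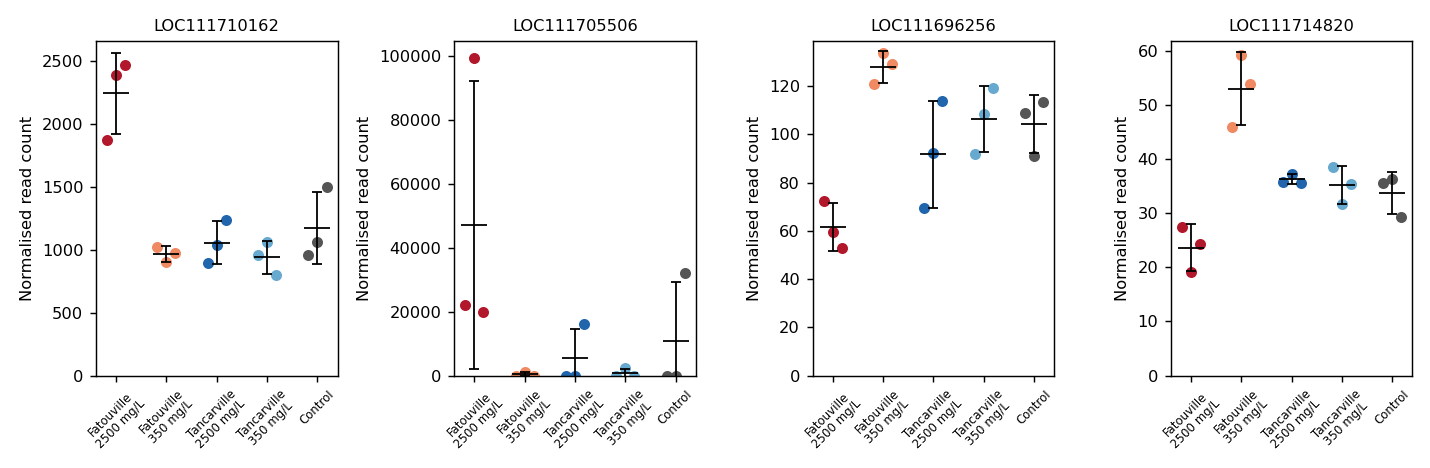
Normalised read counts of the 4 genes in each pool of each group (points), with the group mean and SD (bars, n = 3). LOC111710162 was at 1875 to 2469 in the Fatouville 2500 mg/L pools and at or below 1495 in every other pool. LOC111705506 ranged from 0 to 99253 between pools.

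A limma adjusted p just above the threshold was common. 100 genes shared the value 0.0543, and at a threshold of 0.1 in place of 0.05, chosen after the data were seen, 675 genes were higher (3.57% of those fitted) and 198 lower (1.05%). The median log2 fold change of those genes was 0.70 for the higher and -0.51 for the lower. Without adjustment, 3676 of the 18229 genes had a limma p under 0.05 (20.2%), 2230 of them with higher values at 2500 mg/L (12.2%). The number of adjusted calls depended on single libraries. It was 1103 (925 higher and 178 lower) without 2500 mg/L pool 1, 1 without pool 2 and 0 without pool 3, and 0 without any 1 of the 350 mg/L pools. Without pool 2 the single gene called was not LOC111710162. edgeR called 0 genes, with 3900 at an unadjusted p under 0.05, and DESeq2 called 851 higher (4.69% of the genes it gave an adjusted p) and 222 lower (1.22%). Of the 1073 DESeq2 calls, which this contrast chose, 93.1% had no overlap between the 2 groups (21.1% of all genes compared) and 35.6% differed by at least 2-fold on the limma scale (5.38% of all genes compared).

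Most genes were close at the 2 concentrations. The median absolute log2 fold change was 0.22, with a median SE of 0.18, and 15284 genes (83.8%) differed by less than 0.5 on the log2 scale. For 14117 genes (77.4%) the 95% interval of the fold change, not adjusted for the number of genes, lay within 2-fold in both directions. The 100 genes with the highest mean level, at 17576 normalised counts or more, had log2 fold changes of -1.74 to 0.20, and 8% of them had groups that did not overlap, against 21.1% of all genes compared.

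Large differences ran mostly one way. On the log2(value + 1) scale 886 genes were at least 2-fold higher at 2500 mg/L (4.86%) and 94 at least 2-fold lower (0.516%). At least 4-fold higher were 514 of the 18229 genes, against 2 at least 4-fold lower. In the same way 338 genes were at least 8-fold higher, against 0 at least 8-fold lower. These 338 genes were chosen by this contrast, which raises both counts that follow. Of them, 85 had a limma adjusted p under 0.1, against 675 genes higher at that threshold among all 18921 fitted (3.57%). A value of 10 was reached at 2500 mg/L only by 96 of them, against 144 of all 18229 genes. In 2214 genes all 2500 mg/L pools lay above all 350 mg/L pools (12.1%), and in 1636 genes all lay below (8.97%). The separated genes differed in size by direction. Those above had a median log2 fold change of 0.51, and 593 of them (3.25% of all genes) were at least 2-fold higher. Those below had a median of -0.37, and 44 (0.241%) were at least 2-fold lower. With quantile normalisation, which moved the median log2 fold change of all genes to -0.10, the 2-fold counts were 790 higher and 268 lower and the separated genes 1472 higher and 2854 lower. The balance of separated genes therefore turned with the scaling, while higher values stayed the more frequent among 2-fold genes. Without pool 2 of 350 mg/L, 1062 genes were at least 2-fold higher, 856 of them among the 886, and 96 were lower, 56 of them among the 94. At least 4-fold higher were then 610 genes and at least 8-fold higher 406, against 2 and 0 lower. Separated genes then numbered 3335 higher and 3166 lower, counts that grow by construction when a pool is dropped.

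The filter has a part in these counts, because 144 genes reached a value of 10 in all 2500 mg/L pools and in no 350 mg/L pool, and 24 the reverse. Without them 745 genes were at least 2-fold higher and 83 lower. The 2-fold genes lay mostly at low levels. In the lowest quartile of genes by mean level over the 15 libraries (3.45 to 62.4 normalised counts), 8.67% were at least 2-fold higher and 1.51% lower. In the highest quartile (565 and above), 2.02% were higher and 0.241% lower. Without pool 2 of 350 mg/L these shares were 10.99% and 1.60% in the lowest quartile and 2.06% and 0.263% in the highest. Separation of the 2 groups followed another course, with 9.81%, 12.3%, 16.4% and 10.1% of genes above from the lowest to the highest quartile. Below, the shares were 6.95%, 9.37%, 7.92% and 11.7%, so that in the highest quartile separated genes were more often lower than higher. The median SE fell over the same quartiles, at 0.36, 0.20, 0.14 and 0.12.

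**Figure D2:**
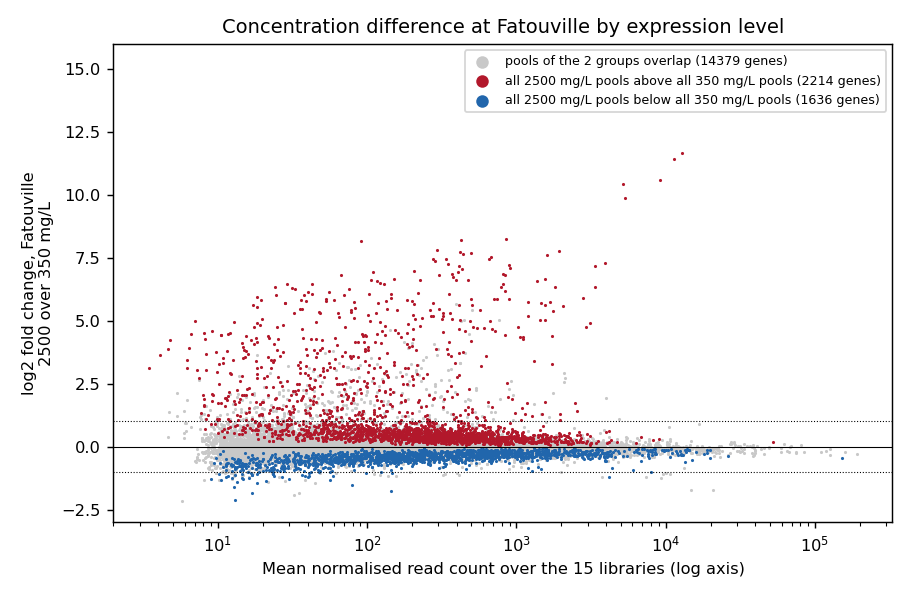
Log2 fold change of Fatouville 2500 mg/L over 350 mg/L (vertical axis, with dotted lines at 2-fold) against the mean normalised read count over the 15 libraries (horizontal log axis) for the 18229 genes, coloured by whether the 3 and 3 pools overlap. Differences beyond 2-fold lie above the zero line for 886 genes and below it for 94.

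The 886 genes at least 2-fold higher were chosen by this contrast, and their Fatouville values are a description. Their median normalised read count was 173, 132 and 91.3 in the 2500 mg/L pools, against 13.98, 32.0 and 10.6 in the 350 mg/L pools. Pool 2 of 350 mg/L stood highest in its group. The genes took 4.11%, 5.69% and 2.36% of all reads at 2500 mg/L, against 0.437%, 0.703% and 0.261% at 350 mg/L. They varied much within each concentration. The median SD of their log2 values was 0.92 at 2500 mg/L and 0.78 at 350 mg/L, against 0.22 and 0.21 over all genes compared. In whole-animal pools a change in the number of cells of a type and a change in RNA per cell cannot be told apart, and a pooled value does not show how many of the 30 males carried the transcript.

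The 9 pools that the choice did not use were uneven for the same genes. At Tancarville the median was 15.7, 44.9 and 127 in the 2500 mg/L pools and 48.3, 18.4 and 12.8 in the 350 mg/L pools. It was 11.3, 13.4 and 24.6 in Control. Tancarville 2500 mg/L pool 3 reached the range of the Fatouville 2500 mg/L pools, and 754 of the 886 genes were higher there than in every Fatouville 350 mg/L pool. This held for 432 genes in Tancarville 2500 mg/L pool 2, 423 in Tancarville 350 mg/L pool 1 and 385 in Control pool 3. In the other 5 pools outside Fatouville it held for 99 to 215 genes. Over all 18229 genes, 3477 to 5067 lay above every Fatouville 350 mg/L pool in those 9 pools, with 4424 in Tancarville 2500 mg/L pool 3. The Fatouville 350 mg/L values that set this mark also entered the choice of the 886 genes. Their counts above the mark are therefore raised in part by the choice, while the counts over all genes are not.

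**Figure D3:**
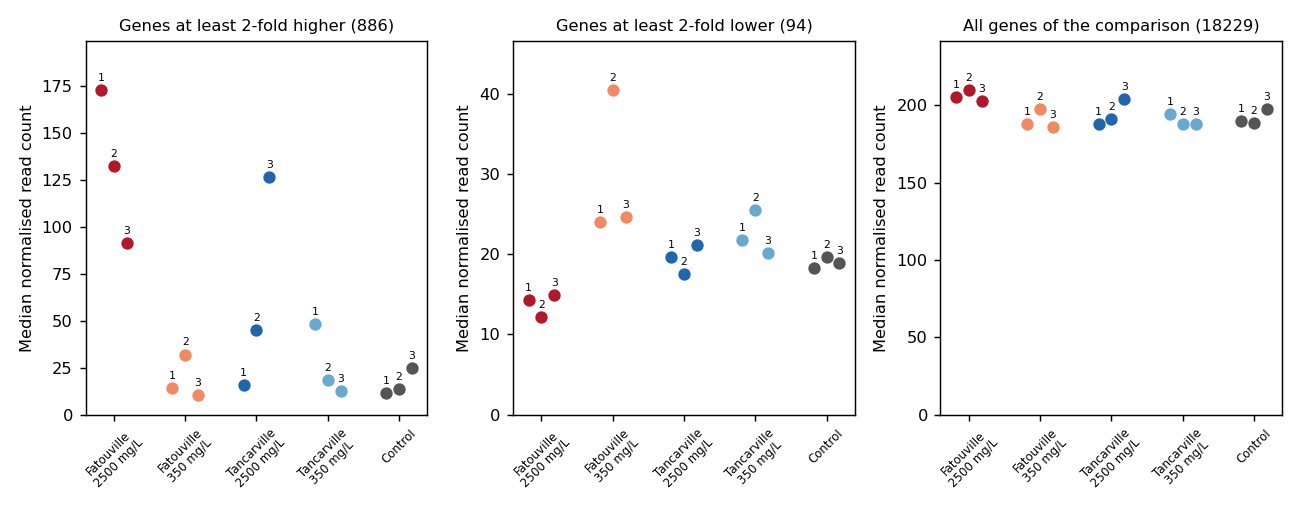
Median normalised read count in each pool (points, labelled with the pool number) of the 886 genes at least 2-fold higher, the 94 at least 2-fold lower and all 18229 genes. Tancarville 2500 mg/L pool 3 stands at 127 for the 886 genes, between the Fatouville 2500 mg/L pools at 91.3 and 132.

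The 886 genes were split by the 2500 mg/L pool in which each was highest. For 393 this was pool 1 (44.4%), for 364 pool 2 (41.1%) and for 129 pool 3 (14.6%), against 35.4%, 32.0% and 32.6% of all genes compared. Pool 1 was at least 2-fold above both others for 208 of the 886 genes, pool 2 for 64 and pool 3 for 9. The split makes the median of the pool that defines each set high by construction, while the pools outside Fatouville had no part in it. The genes highest in pool 1 had a median of 260 there, with 48.8 and 71.1 in pools 2 and 3, and of 13.98, 34.8 and 10.6 in the 350 mg/L pools. Outside Fatouville they were high in Tancarville 2500 mg/L pools 2 and 3 (102 and 151) and in Tancarville 350 mg/L pool 1 (96.6). They were at 11.3, 13.4 and 11.4 in the Control pools.

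The genes highest in pool 2 had medians of 161, 325 and 116 in the 2500 mg/L pools and 15.97, 30.6 and 10.6 in the 350 mg/L pools. These genes were high in Control pool 3, at 71.4 against 11.7 and 13.4 in Control pools 1 and 2, and in Tancarville 2500 mg/L pool 3, at 153 against 16.8 and 22.8 in pools 1 and 2. For the genes highest in pool 3 the medians were 74.1, 96.4 and 168 at 2500 mg/L, against 11.98, 24.5 and 10.6 at 350 mg/L. Control pool 3 stood at 95.6 for them, and Tancarville 2500 mg/L pool 3 at 46.0. Single pools of each of the other 4 groups thus stood above the rest of their group for some of the 886 genes. The part of such pool-to-pool variation in the difference between the concentrations was not tested.

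**Figure D4:**
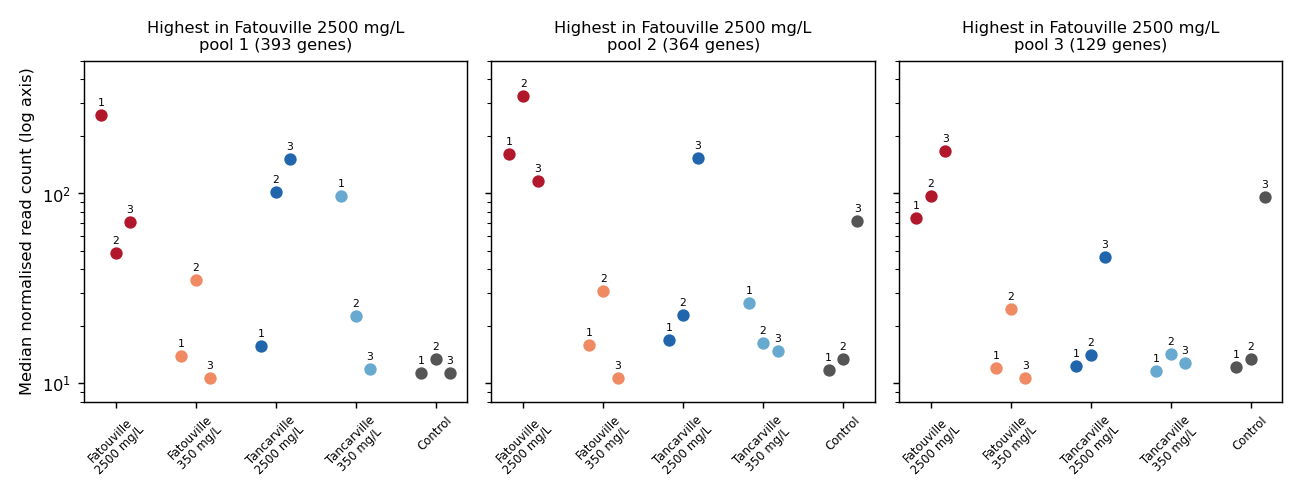
Median normalised read count (log axis) in each pool, labelled with its number, of the 886 genes at least 2-fold higher, split by the Fatouville 2500 mg/L pool in which each was highest. Control pool 3 is at 11.4 for the 393 genes highest in pool 1, and at 71.4 and 95.6 for the genes highest in pools 2 and 3.

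A set of 52 genes was nearly silent in 2 of the 350 mg/L pools. They were picked after the data were seen, as genes with at most 5 reads in each of 350 mg/L pools 1 and 3 and at least 100 reads in every 2500 mg/L pool. The median read count of the set was 489.5, 863.5 and 518.5 in the 2500 mg/L pools, against 2, 65 and 1 in the 350 mg/L pools. These genes took 0.654%, 2.59% and 0.755% of all reads at 2500 mg/L. The median SE of their log2 fold changes was 2.42, against 0.18 over all genes compared. Of the 52 genes, 0 had a limma adjusted p under 0.05, against 1 of all 18921 genes fitted (0.00529%). With so few calls in all, this count does not set the 52 genes apart. In the pools that did not enter the choice, 42 of the 52 genes had at least 100 reads in Tancarville 2500 mg/L pool 3 and 45 in Control pool 3. The share of all genes with as many reads was not counted, and their median normalised count was 204 and 198 in those pools. In Control pools 1 and 2 it was 0 of the 52 genes that had at least 100 reads. At most 5 reads were found for 46 of the 52 in Control pool 1, for 46 in Control pool 2 and for 43 in both. Fatouville 350 mg/L pool 2 had 18 such genes with at least 100 reads. The Tancarville counts were 3, 7 and 0 in the 350 mg/L pools, and 0 and 3 in 2500 mg/L pools 1 and 2.

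LOC111705506, named after its values were seen, had the largest log2 fold change of the comparison among genes whose groups did not overlap. It had 22055, 99253 and 19941 normalised counts in the 2500 mg/L pools, against 0, 1238 and 0 in the 350 mg/L pools. A count of 0 allows up to 3 reads, or 0.188 and 0.184 per 1 M reads in 350 mg/L pools 1 and 3, a limit that covers counting error only. The log2 fold change was 11.7 (SE 5.24, limma adjusted p = 0.251). It was 15.1 without pool 2 of 350 mg/L and 9.97 without pool 1 or pool 3 of 350 mg/L, 12.3 and 10.1 with pseudocounts of 0.5 and 5, and 6.83 by edgeR. Elsewhere the gene had 0, 0 and 15991 normalised counts at the higher Tancarville concentration, 0.966, 2333 and 1.97 at the lower one and 0, 0 and 32081 in Control. The authors' deposited Cook's distances, scores of the pull of a single library on the fit of a gene, exceeded 5.64 (the 99% point of an F distribution) for 0 genes in the Fatouville 2500 mg/L pools. They did so for 17 genes in Fatouville 350 mg/L pool 2, 19 in Tancarville 2500 mg/L pool 3 and 20 in Control pool 3.

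The 94 genes at least 2-fold lower formed a smaller and flatter group. Their median normalised count was 14.3, 12.2 and 14.9 in the 2500 mg/L pools, against 24.0, 40.5 and 24.6 in the 350 mg/L pools. Their level over the 15 libraries was low, with a median of 23.3 against 201 for all genes compared. In the pools that did not enter the choice the medians were 19.6, 17.5 and 21.1 at the higher Tancarville concentration, 21.7, 25.5 and 20.2 at the lower one and 18.3, 19.6 and 18.9 in Control. Against Control, the median log2 difference of these genes was -0.69 at Fatouville 2500 mg/L and 0.51 at Fatouville 350 mg/L. For the 886 higher genes the same medians were 2.47 and -0.02. Over all genes compared they were 0.01 and -0.004. Both pairs set the Fatouville groups against the same Control pools. The lists were chosen by the difference between the Fatouville groups, so the gap within each pair follows from the choice. The count of lower genes moved with single pools, to 176 without 2500 mg/L pool 1 and to 161 and 181 without 350 mg/L pools 1 and 3.

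The concentration difference was set beside that at Tancarville, which shares no library with it. By limma no gene differed between Tancarville 2500 and 350 mg/L (smallest adjusted p = 0.857, with 1056 of the 18229 genes at an unadjusted p under 0.05, 2.81% of genes with higher and 2.98% with lower values at 2500 mg/L). At Tancarville 453 genes were at least 2-fold higher (2.49%) and 51 at least 2-fold lower (0.28%). The log2 fold changes had an SD of 0.82 at Fatouville and 0.38 at Tancarville. Across the 18229 genes they had a Pearson correlation of 0.64 and a Spearman correlation of 0.30, given as a description, since genes of 1 library are not independent. Without Tancarville 2500 mg/L pool 3 the Pearson correlation was 0.13 and the Spearman correlation 0.20, and 131 genes were at least 2-fold higher at Tancarville (0.719%) and 136 lower.

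Of the 886 genes at least 2-fold higher at Fatouville, 805 (90.9%) also had the higher value at 2500 mg/L at Tancarville, against 51.1% of all genes, and 416 (47.0%) were at least 2-fold higher there. Without Tancarville 2500 mg/L pool 3, which was high for these genes, 602 (67.9%) had the higher value at 2500 mg/L at Tancarville, against 50.9% of all genes, and 88 (9.93%) were at least 2-fold higher there. Most of the 2-fold overlap thus went with that pool. Of the 1062 genes chosen without pool 2 of Fatouville 350 mg/L, 915 (86.2%) had the higher value and 420 (39.5%) were at least 2-fold higher at Tancarville. Of the 94 lower genes, 5 were at least 2-fold lower at Tancarville (5.32%) and 5 at least 2-fold higher. Of the 2214 genes separated above at Fatouville, 291 were also separated above at Tancarville (13.1%, against 6.72% of all genes) and 46 below (2.08%, against 6.8%). Of the 1636 separated below, 186 were separated below at Tancarville (11.4%) and 36 above (2.2%). Without Tancarville 2500 mg/L pool 3, the genes separated above at Fatouville were separated above at Tancarville in 19.9% and below in 5.87%, against 13.3% of all genes in each direction.

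**Figure D5:**
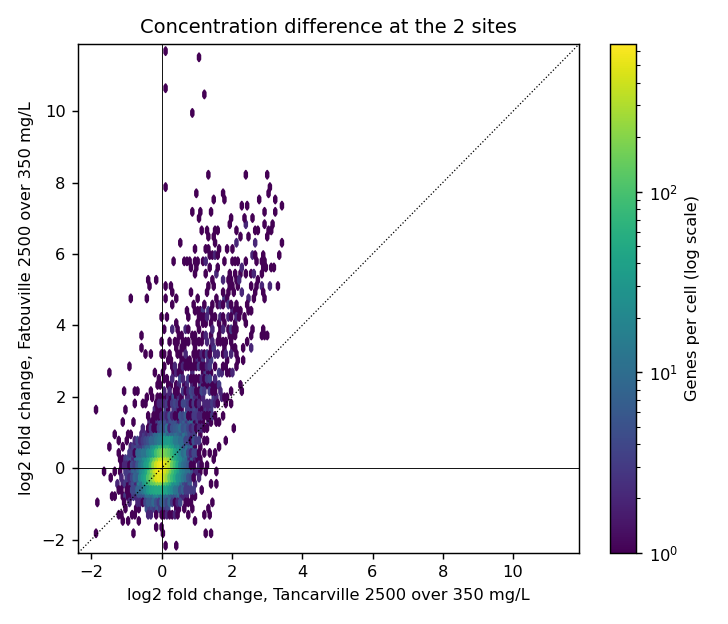
Log2 fold change of 2500 over 350 mg/L at Fatouville (vertical axis) against that at Tancarville (horizontal axis) for the 18229 genes, with the number of genes per cell in colour (log scale) and a dotted line of equal change. The cloud of high values lies above the line, with an SD of 0.82 at Fatouville and 0.38 at Tancarville (0.32 without Tancarville 2500 mg/L pool 3).

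The test of the difference between the 2 sites in the effect of concentration gave no gene by limma (smallest adjusted p = 0.63), with 1439 of the 18229 genes at an unadjusted p under 0.05 (867 with the larger value at Fatouville, 4.76%, and 572 with the smaller, 3.14%). edgeR also called 0 genes, with 1471 at an unadjusted p under 0.05, and DESeq2 called 1 (0.0053% of the genes it gave an adjusted p). That gene, LOC111705060, was named after its values were seen. It had 731, 958 and 822 normalised counts at Fatouville 2500 mg/L, against 614, 555 and 566 at Fatouville 350 mg/L. At Tancarville it had 471, 554 and 590 at 2500 mg/L, against 772, 710 and 680 at 350 mg/L. The pools separated at both sites and in opposite directions. The log2 fold changes were 0.53 (SE 0.12) at Fatouville and -0.42 (SE 0.12) at Tancarville, and their difference was 0.95 (SE 0.18, limma adjusted p = 0.63, DESeq2 adjusted p = 0.0131). With Control pool 3, Fatouville 350 mg/L pool 2 and Tancarville 2500 mg/L pool 3 left out together, limma called 683 genes between the Fatouville concentrations and 172 for the difference between sites, 163 of these with the larger value at Fatouville. Those libraries were picked by their values in these data, and dropping the Tancarville 2500 mg/L pool and the Fatouville 350 mg/L pool moves the difference between sites towards larger values at Fatouville for the 886 genes. The 172 calls are therefore a description and no test. With any 1 elutriate pool left out, limma called 0 genes for that difference.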

How the data were processed

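Per the labels' protocols, 15 libraries were made from 200 ng each of total RNA of pools of 30 whole males. STAR, Salmon, DESeq2 and HTSeq 0.11.2 appear in the submitters' processing notes, with no role stated. Genome build and strandedness were not given in the sources used here. Reads shared by near-identical or overlapping genes could not be told apart. The values deposited by the authors are a signal: the reads of each gene after division by a size factor of the library. Divided by the smallest value of its library, every value (100%) came out whole to a tolerance of 1e-06, which gave back the reads for the count tests. The table also holds a score the authors deposited, Cook's distance.

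Genes were tested on log2(value + 1) in limma 3.58.1 under R 4.3.3, with group as the term, fitted to all 15 libraries with trended, robust moderation. It covered the 18921 genes that reached 10 in 3 or more libraries. P-values were 2-sided and Benjamini-Hochberg adjusted over those genes, with a threshold of 0.05. Such fold changes understate changes of low genes. edgeR 4.0.16 and DESeq2 1.42.0 were run on the reads as alternatives, and adjusted p-values DESeq2 left out stayed missing. The limma test of the concentration difference at Fatouville was tested on simulated data. The edgeR and DESeq2 runs and the test of the difference between sites were not checked in that way.

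The genes compared and the lists were chosen with earlier results of these data known. With no names for identifiers, the rule named up to 2 called genes per direction with the largest fold change, or the 2 with the smallest p where none was called. The lists of product names could not be applied. Pools of 1 group differed by more than sampling noise (lowest chi-square per degree of freedom, 29.4). The limma p-values of the main fit set a difference of means against the spread between pools within groups, estimated over all 15 libraries.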

Additional observations from a re-analysis of the deposited data

Results flagged for a closer look

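The concentration difference of LOC111705060 ran in opposite directions at the 2 sites, with every pool of 2500 mg/L above every pool of 350 mg/L at Fatouville and below it at Tancarville. The difference of the log2 fold changes was 0.95 (SE 0.18), which missed the threshold by limma (adjusted p = 0.63) and by edgeR (adjusted p = 0.62) and passed by DESeq2 (adjusted p = 0.0131). Over 23 alternative settings it lay between 0.85 and 1.04, with adjusted p from 0.0131 to 0.911, and it passed in 2 of them. Of the 18229 genes, 46 were separated above at Fatouville and below at Tancarville, and 36 the other way round.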

How the results depend on the processing

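The count of 1 gene called between the Fatouville concentrations was the same with a pseudocount of 0.5, TMM scaling, quantile normalisation and a mean value of at least 50. It was 0 by edgeR, 2 with no filter on low values, 116 (105 higher) with a pseudocount of 5, 202 (201 higher) in a fit of the 6 libraries alone, 683 without the 3 libraries that stood apart, 873 at an adjusted p under 0.1 and 1073 by DESeq2. Leaving out 1 Fatouville pool gave 0 to 1103 calls. With the replicate block the count was 189 (175 higher and 14 lower). The labels do not state that the numbers pair the pools. Deviations of same-numbered 2500 and 350 mg/L pools correlated at -0.13, -0.32 and 0.17, and not every pool correlated best with its own number. With 3 pools per group, these values cannot decide whether the numbers pair the pools. For the difference between sites the count of 0 held in 22 settings, was 1 by DESeq2 and 172 without the 3 libraries, which were picked by their values in these data, and stayed at 0 with any 1 elutriate pool left out.

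Genes at least 2-fold higher numbered 549 with a mean value of at least 50, 840 to 1062 with 1 pool left out and 1319 with no filter on low values, against 886. Genes at least 2-fold lower numbered 96 to 181 with 1 pool left out, 29 with that mean filter, 47 with a pseudocount of 5, 157 by edgeR, 160 by DESeq2, 268 with quantile normalisation and 308 with no filter. Separated genes, which grow in number by construction when a pool is dropped, were 2686 to 4277 higher and 2330 to 3194 lower with 1 pool left out. They were 3335 and 3166 without the 3 libraries, and 1472 and 2854 with quantile normalisation. Where not given by construction, the cause was not tested. Of the named genes, LOC111710162 kept its call in 11 of 17 settings. LOC111696256 passed in 6 of 17 and LOC111714820 in 5 of 16, at -1.19 to -0.95 and at -1.35 to -0.997 on the log2 scale, and LOC111705506 in 1 of 16. No named gene changed direction in these settings. The lowest quartile of genes by mean level had the largest median SE, at 0.36, and the part of sequencing depth in it was not tested.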
